A study of Sus scrofa with 4 samples.

Results

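The metalloproteases of the ADAMTS, ADAM and MMP families, the ADAMTS-like proteins and the TIMP inhibitors were examined in porcine granulosa cells, the follicle's own somatic cells, which nurse the oocyte. Members were the genes whose symbol carries the family name and a number, with 40 or more raw read counts summed over the libraries. By this rule 45 of the 29884 genes in the count table were members. They comprised 16 ADAMTS, 5 ADAMTSL, 11 ADAM, 9 MMP and 4 TIMP genes.

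Cells came from antral follicles of pig ovaries (Sus scrofa). One part of the cells was read for cell cycle phase by flow cytometry, and the rest was sequenced as bulk RNA. Of the 4 libraries, 2 came from cells with a high share in G0/G1 (high G0/G1) and 2 from cells with a low share (low G0/G1). No treatment, breed or animal age is given in the labels, and nothing states that the 2 libraries of a group are from different animals. The p-values therefore cover only how far these libraries differ, and that spread may be technical.

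Metalloproteases of these families hold a zinc ion in the active site. ADAMTS enzymes are secreted and cleave proteoglycans such as versican, procollagens and other matrix proteins. ADAMTS-like proteins share their ancillary domains without the protease, and several bind microfibrils. Most ADAM proteins span the membrane, and the catalytic ones shed growth factors and receptors from the cell surface. MMP enzymes degrade collagens and other matrix proteins, and TIMP proteins inhibit them. In the follicle these genes are known for matrix turnover as the follicle grows and for the opening of the follicle wall at ovulation, where ADAMTS1 cleaves versican around the oocyte in mice.

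Library totals ran from 27442850 to 32674921 counts. Levels are given in CPM (the count over the TMM-scaled library size). They were not divided by transcript length and so are compared between libraries, not between genes. Of 11 granulosa markers 10 were detected, and CYP19A1 had no count. The summed level was 18620 and 11750 CPM in high G0/G1 and 13620 and 12560 CPM in low G0/G1. INHA alone, an inhibin subunit, made up 10570 and 7997 CPM of it in high and 7745 and 6701 CPM in low. Of the 10 tested markers 7 were lower in high G0/G1, all 7 with no overlap (background 29.8%), and the median log2 fold change was -0.79. The other 3 were higher, and 2 of them, INHA and CYP19A3, had no overlap (background 26.8%). CYP19A3 had 3984 and 1548 CPM in high and 1444 and 1142 CPM in low G0/G1. FSHR, the FSH receptor, had 22.5 and 26.0 CPM in high and 81.5 and 85.8 CPM in low G0/G1 (DESeq2 adjusted p = 1.1e-07). The part of these shifts in the members' differences was not tested. Low replicate 2 stood apart in stromal genes: 8 fibroblast markers summed to 89.7 and 121 CPM in high G0/G1, against 39.5 CPM in low replicate 1 and 1439 CPM in low replicate 2. Most of the latter sum was collagen: COL1A1, COL1A2 and COL3A1 had 390, 454 and 478 CPM in that library. Of the 8 markers 7 had a negative fold change and 1, PDGFRA, a positive one (background 50.6% and 49.4%). PDGFRA had 1.98 and 18.6 CPM in high and 0.878 and 6.17 CPM in low G0/G1. The theca gene CYP17A1 was at 0.771 and 1.02 CPM in high G0/G1, and at 0.125 and 51.5 CPM in low G0/G1. INSL3, the other theca gene, was at 17.6 and 30.0 CPM in high and 75.3 and 259.9 CPM in low G0/G1. Endothelial markers summed to 17.9 and 49.4 CPM in high and 7.87 and 62.4 CPM in low G0/G1, and 8 leukocyte markers to at most 5.58 CPM in a library. KDR made up 1.98 and 29.4 CPM of the endothelial sum in high and 2.92 and 10.5 CPM in low G0/G1. The 7 proliferation genes summed to 825 and 186 CPM in high G0/G1 and 2029 and 1845 CPM in low G0/G1, so high replicate 1 lay between high replicate 2 and the low libraries.

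Among the 64 symbols that match the names, 19 fell below the limit, and 8 of these, including MMP3, MMP8 and MMP12, had no count in any library. With 0 counts the level may still be as high as 0.101 and 0.105 CPM in the high and 0.0941 and 0.104 CPM in the low libraries (3 counts, counting error only). MMP9, the second gelatinase, had 0 and 7 counts in high and 0 and 2 in low G0/G1. Just inside the limit were MMP28 with 51 summed counts and ADAMTSL5 with 79. Just outside it were MMP17 with 29 and ADAMTS19 with 24.

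High was set against low G0/G1 to find genes whose level differs with the G0/G1 share. All 45 members could be tested, and with edgeR's quasi-likelihood test 0 were called higher and 0 lower at an adjusted p under 0.05, as was the case for 0% of all 14352 genes tested. At an unadjusted p under 0.05 there were 9 members higher and 12 lower, against 9.92% and 10.8% of all genes. DESeq2, run on the same counts, called 8 members higher and 11 lower among the 43 to which it gave an adjusted p, where the background was 5.79% and 5.48% of all genes. limma-voom called 0 members in either direction (background 0%), with 9 higher and 13 lower at an unadjusted p under 0.05 (background 9.85% and 11.9%). The median absolute log2 fold change was 1.36 over the members and 0.47 over all genes tested. In bulk RNA, fewer cells of a type and less RNA per cell cannot be told apart.

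The groups did not overlap in 29 of the 45 members, against 56.6% of all genes. In 13 the high libraries were the upper pair (background 26.8%) and in 16 the lower pair (background 29.8%). A fitted difference of 2-fold or more was seen in 12 members higher and 15 lower, where 11.3% and 11% of all genes were that far apart. Of the 45 members 20 had a positive fold change (background 49.4%) and 25 a negative one (background 50.6%). The median was -0.45 on the log2 scale, and 0.13 without low replicate 2.

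**Figure D1:**
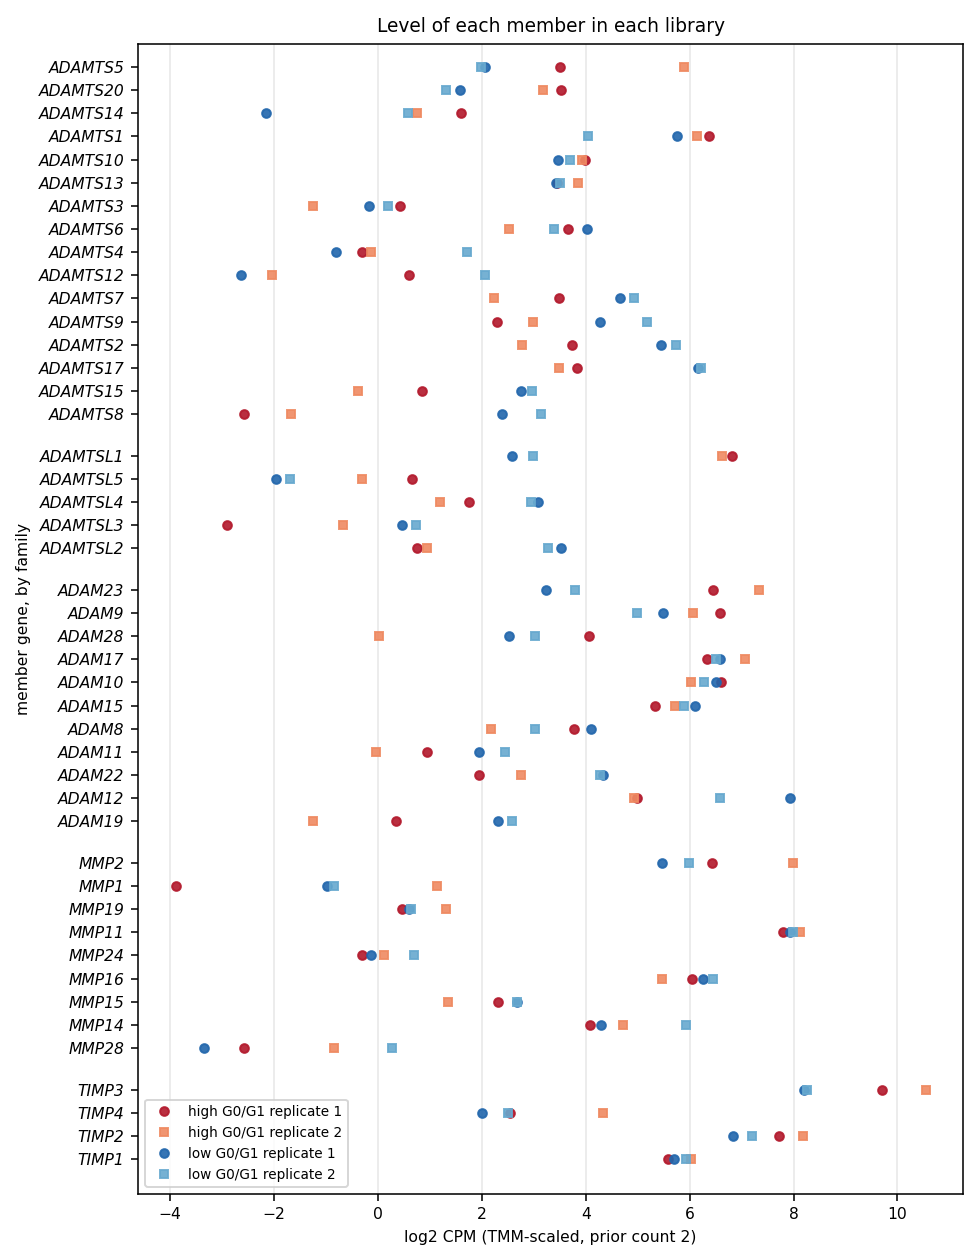
Level of each of the 45 members in each of the 4 libraries, on a log2 CPM axis (TMM-scaled, prior count 2), grouped by family and ordered by fold change. Red and orange marks are high G0/G1 libraries and dark and light blue marks low G0/G1 libraries. ADAMTSL1 and ADAM23 show the red marks far to the right of the blue, ADAMTS8 and ADAMTS17 far to the left, and MMP11 and TIMP1 show the 4 marks close together.

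Among the proteoglycan-cleaving ADAMTS genes the direction differed from gene to gene. ADAMTS1 (chromosome 13, 190277175 to 190285957 in Sscrofa11.1) had 82.7 and 70.9 CPM in high G0/G1, against 54.3 and 16.4 CPM in low G0/G1. ADAMTS5 (chromosome 13, 190353019 to 190413110), a potent aggrecan-cleaving enzyme in mouse cartilage, had 11.2 and 58.9 CPM in high and 4.11 and 3.88 CPM in low G0/G1. ADAMTS20 (chromosome 5, 74502098 to 74672703), a versican-cleaving enzyme of the developing skin in mice, had 11.4 and 8.98 CPM in high and 2.92 and 2.43 CPM in low. In these 3 genes both high libraries were above both low ones (background 26.8% of all genes). The spread was widest between the high libraries of ADAMTS5 and between the low libraries of ADAMTS1.

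The log2 fold change was 3.13 ± 0.81 (SE) for ADAMTS5, 1.93 ± 0.38 for ADAMTS20 and 1.12 ± 0.56 for ADAMTS1, with edgeR adjusted p-values of 0.173, 0.154 and 0.317. DESeq2 called ADAMTS5 (adjusted p = 7.3e-04) and ADAMTS20 (adjusted p = 4.6e-04) but not ADAMTS1 (adjusted p = 0.210). The ADAMTS20 call was lost in 3 of the 4 fits that leave out a library, without high replicate 1 or either low library (DESeq2 adjusted p = 0.074, 0.085 and 0.206). The fold change of ADAMTS5 was 3.87 without high replicate 1, and without high replicate 2 it was 1.49 and the DESeq2 call was lost. That of ADAMTS1 was 2.29 when low replicate 1 was left out and 0.51 when low replicate 2 was, and in the first of these fits DESeq2 called it higher (adjusted p = 0.00168).

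Another 3 enzymes of the same group were lower in high G0/G1. ADAMTS8 (chromosome 9, 57090313 to 57113077) had 3 and 7 raw counts in high G0/G1, against 165 and 252 in low G0/G1. With 10 summed counts in high and 417 in low, it reached the 40-count limit only through the low group. Summed over the libraries of a group and scaled, its level was 40.1-fold lower in high G0/G1, with a 95% counting interval of 21.6 to 84.1. That interval leaves out the spread between libraries. ADAMTS9 (chromosome 13, 46033753 to 46209238), which cleaves versican in mouse embryos, had 4.83 and 7.86 CPM in high and 19.2 and 36.3 CPM in low G0/G1. ADAMTS15 (chromosome 9, 57127527 to 57152550) had 1.74 and 0.702 CPM in high and 6.68 and 7.69 CPM in low. Each high library of these 3 genes was under every low library (background 29.8% of all genes).

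Their log2 fold changes were -5.30 ± 0.70 (SE) for ADAMTS8, -2.13 ± 0.45 for ADAMTS9 and -2.55 ± 0.59 for ADAMTS15 (edgeR adjusted p = 0.125, 0.157 and 0.167). DESeq2 called the 3 genes lower, at adjusted p-values of 2.6e-09, 9.9e-04 and 0.00208. The call was lost for ADAMTS9 without low replicate 2, and for ADAMTS15 without high replicate 2 or either low library. For ADAMTS8 the fold change was -6.05 without high replicate 2 and -4.81 without high replicate 1. For ADAMTS15 it was -3.36 without high replicate 1. ADAMTS4, the remaining gene of this group, overlapped between groups at 0.738 and 0.842 CPM in high and 0.502 and 3.22 CPM in low G0/G1.

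Summed over the 7 genes of the group, the level was 113 and 148 CPM in high G0/G1 and 92.9 and 78.6 CPM in low G0/G1. This put the high libraries above the low ones, with an exact two-sided permutation p of 0.333, the smallest that 2 libraries against 2 allow. ADAMTS1 took 73.4% and 47.8% of the group's reads in high and 58.5% and 20.9% in low G0/G1. By gene, 3 of the 7 were higher and 4 lower (background 49.4% and 50.6%), with a median log2 fold change of -1.23. Members of the group also lie side by side in the genome. ADAMTS8 and ADAMTS15 are 14449 bases apart with no annotated gene between them, and both were lower in high G0/G1. ADAMTS1 and ADAMTS5 are 67061 bases apart, with 1 annotated gene between them, and both were higher. Of single genes 49.4% were higher and 50.6% lower, and how often neighbours share a direction over all genes was not tested. The levels of ADAMTS1 and ADAMTS5 did not move together within high G0/G1. High replicate 2 over high replicate 1 was 5.24-fold for ADAMTS5 and 0.858-fold for ADAMTS1. A further pair within 250000 bases, ADAMTS13 and ADAMTSL2 on chromosome 1, did not share a direction: ADAMTS13 had 10.8 and 14.35 CPM in high and 10.75 and 11.3 CPM in low, while ADAMTSL2 was lower in both high libraries.

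**Figure D2:**
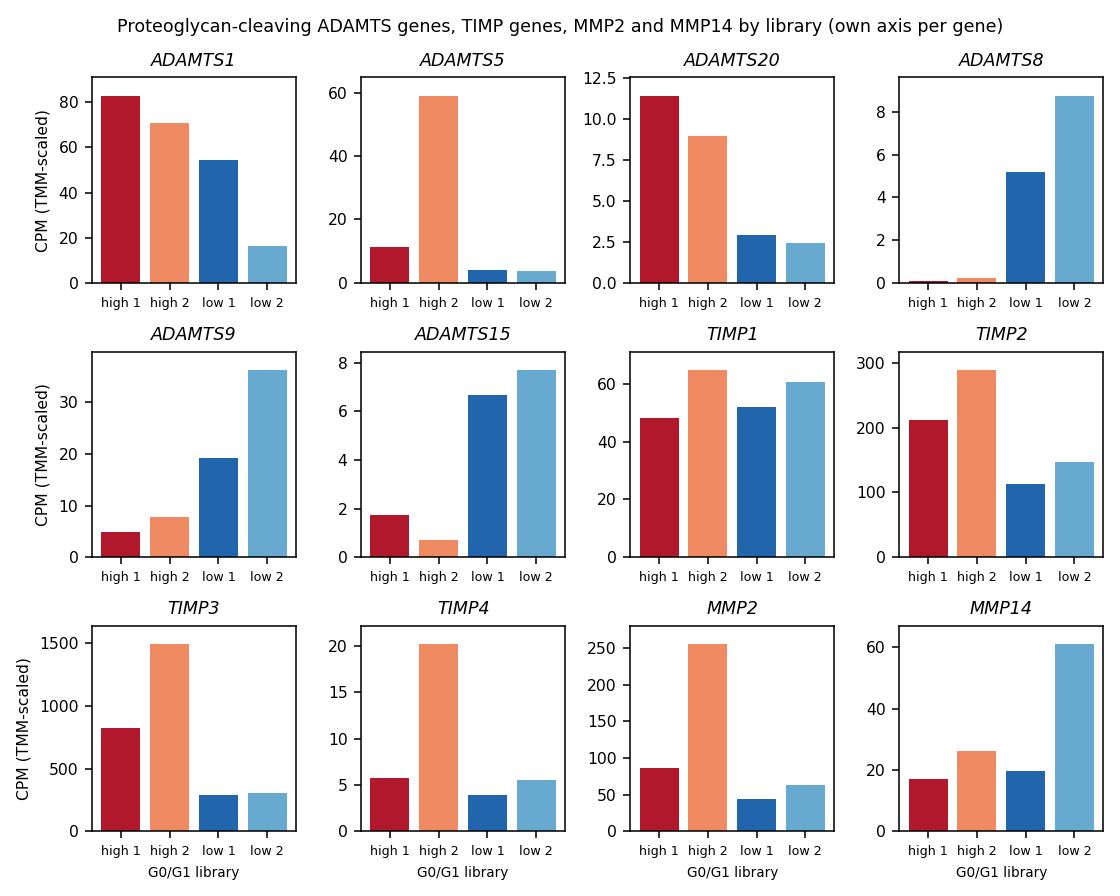
Level in CPM (TMM-scaled, axis from 0 and scaled per gene) of 6 proteoglycan-cleaving ADAMTS genes, the 4 TIMP genes, MMP2 and MMP14 in the 2 high G0/G1 libraries (red, orange) and the 2 low G0/G1 libraries (dark and light blue). ADAMTS5, TIMP4 and MMP2 stand out in high replicate 2, whereas MMP14 stands out in low replicate 2.

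The ADAMTS enzymes that act on procollagen differed too. ADAMTS2 (chromosome 2, 79182901 to 79406879), which removes the amino-terminal propeptide of fibrillar procollagens, had 13.3 and 6.81 CPM in high G0/G1, against 43.4 and 53.5 CPM in low G0/G1. The log2 fold change of ADAMTS2 was -2.27 ± 0.39 (SE, edgeR adjusted p = 0.142, DESeq2 adjusted p = 2.6e-05). The related ADAMTS3 overlapped between groups, at 1.27 and 0.351 CPM in high and 0.815 and 1.07 CPM in low. ADAMTS14, the third of them, had 2.95 and 1.61 CPM in high and 0.157 and 1.42 CPM in low G0/G1, and its fold change of 1.53 ± 1.06 was 3.84 when low replicate 2 was left out and 0.74 when low replicate 1 was.

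ADAMTS17 (chromosome 1, 138619701 to 139015681), a secreted protease whose loss causes a short-stature syndrome with lens dislocation in humans, had 14.2 and 11.09 CPM in high G0/G1, against 71.9 and 74.4 CPM in low G0/G1. This gave a log2 fold change of -2.53 ± 0.24 (SE, edgeR adjusted p = 0.125, DESeq2 adjusted p = 1.7e-13). It took 7.25% and 5.32% of all ADAMTS reads in high G0/G1, with 95% Wilson intervals of 6.61 to 7.94% and 4.78 to 5.93%. In low G0/G1 it took 26.4% and 26.7%, with intervals of 25.5 to 27.3% and 25.8 to 27.7%. For ADAMTS1 the shares were 42.2% (40.9 to 43.4%) and 34.1% (32.9 to 35.3%) in high and 19.9% (19.1 to 20.8%) and 5.91% (5.41 to 6.44%) in low G0/G1. Such shares depend on transcript length, and the intervals cover counting error only. Of the 16 ADAMTS genes, ADAMTS1 held the most reads in both high libraries and ADAMTS17 in both low libraries.

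ADAMTS7 (chromosome 7, 47919398 to 47994528), which cleaves cartilage oligomeric matrix protein, had 11.06 and 4.63 CPM in high and 25.3 and 30.6 CPM in low G0/G1. Its log2 fold change was -1.83 ± 0.47 (SE, edgeR adjusted p = 0.171, DESeq2 adjusted p = 0.00796), and the DESeq2 call was lost without either low library. Without high replicate 1 the fold change of ADAMTS7 was -2.60. ADAMTS12, of similar substrate, was at 1.44 and 0.175 CPM in high and 0.0941 and 4.09 CPM in low G0/G1, with each group spread more widely than the fold change between groups. ADAMTS6 and ADAMTS10, a pair linked to fibrillin microfibrils, had log2 fold changes of -0.55 ± 0.49 and 0.38 ± 0.27, and the groups overlapped for ADAMTS6 only. ADAMTS13, which cleaves von Willebrand factor in blood, had 0.19 ± 0.31.

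In the ADAMTS-like family 1 gene dominated the reads of high G0/G1 cells. ADAMTSL1 (chromosome 1, 203936654 to 204944236), also called punctin, took 94.5% of the family's reads in high replicate 1 (95% Wilson interval 93.7 to 95.2%) and 94.8% in high replicate 2 (93.9 to 95.6%). In low replicate 1 it took 21.7% (19.1 to 24.6%) and in low replicate 2 29.2% (26.1 to 32.5%). Its raw counts were 3341 and 2792 in high G0/G1, against 188 and 226 in low G0/G1. Among the 45 members it had the smallest edgeR p, with a log2 fold change of 3.93 ± 0.27 (SE, adjusted p = 0.125), and without a filter on low counts it was the only member past edgeR's threshold (adjusted p = 0.0330).

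ADAMTSL2 (chromosome 1, 273119826 to 273155412), a microfibril-associated protein mutated in human geleophysic dysplasia, went the other way. It had 1.61 and 1.86 CPM in high and 11.4 and 9.57 CPM in low G0/G1, a log2 fold change of -2.59 ± 0.39 (SE, edgeR adjusted p = 0.127, DESeq2 adjusted p = 1.4e-06). ADAMTSL4, which binds fibrillin-1, had a log2 fold change of -1.53 ± 0.42 (DESeq2 adjusted p = 0.0209), and ADAMTSL3 had -2.20 ± 1.02 with 2 and 16 raw counts in high G0/G1 against 42 and 46 in low G0/G1. ADAMTSL5 was low throughout, with 45 and 21 counts in high against 6 and 7 in low. The groups did not overlap in the 5 genes, where 56.6% of all genes showed the same. For ADAMTSL3 and ADAMTSL5, as for ADAMTS8, the 40-count limit was reached only through the group with the higher counts. The DESeq2 call was lost for ADAMTSL2 without low replicate 1, and for ADAMTSL4 without high replicate 2 or either low library.

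The ADAM family held a large difference in a gene without protease activity. ADAM23 (chromosome 15, 109695250 to 109886154), a cell-surface adhesion protein that binds LGI1 in the brain, had 87.2 and 161.9 CPM in high G0/G1, against 9.31 and 13.8 CPM in low G0/G1. Its log2 fold change was 3.43 ± 0.41 (SE, edgeR adjusted p = 0.125, DESeq2 adjusted p = 2.9e-12). The other 2 non-proteolytic members were lower in both high libraries than in both low ones (background 29.8%). ADAM22 (chromosome 9, 68253023 to 68490327), the other LGI1 receptor, had 3.79 and 6.70 CPM in high and 20.2 and 19.3 CPM in low G0/G1, a log2 fold change of -1.91 ± 0.38 (DESeq2 adjusted p = 0.00107, lost without either low library). ADAM11 had a log2 fold change of -1.73 ± 0.57 (edgeR adjusted p = 0.203, DESeq2 adjusted p = 0.0678).

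Among the 8 proteolytic ADAM genes, the 2 best-known sheddases differed little between groups. ADAM17, which releases EGF-like ligands and TNF, had 80.9 and 133.6 CPM in high and 95.6 and 91.4 CPM in low G0/G1. ADAM10, which cleaves Notch, had 96.9 and 65.1 CPM in high and 91.0 and 77.3 CPM in low. Their log2 fold changes were 0.20 ± 0.29 (SE) and -0.05 ± 0.27, and the groups overlapped in both. A p that misses the threshold does not show that they are equal, and without high replicate 2 both signs turned, to -0.21 and 0.21.

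ADAM12 (chromosome 14, 135302188 to 135682144), a sheddase known for cleaving IGF-binding proteins, had 31.8 and 30.35 CPM in high G0/G1, against 242.8 and 95.9 CPM in low G0/G1. The high libraries were close together, and low replicate 1 was far above low replicate 2. Its log2 fold change was -2.45 ± 0.48 (SE, edgeR adjusted p = 0.152, DESeq2 adjusted p = 9.2e-05). Without low replicate 1 it was -1.56 and the DESeq2 call was lost. ADAM19 (chromosome 16, 65715445 to 65814761), a relative that sheds neuregulin in mouse heart development, had 1.21 and 0.351 CPM in high and 4.89 and 5.93 CPM in low G0/G1.

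ADAM9 (chromosome 15, 47523768 to 47601722) was the only proteolytic ADAM gene with both high libraries above both low ones, at 96.4 and 66.6 CPM in high and 44.8 and 31.8 CPM in low G0/G1. DESeq2 called it higher (adjusted p = 0.0327) and ADAM19 lower (adjusted p = 0.00582). The call for ADAM9 was lost without high replicate 1 or either low library, and that for ADAM19 without high replicate 2 or either low library. The fold change of ADAM19, -2.79 ± 0.72 (SE), was -3.94 without high replicate 1 and -2.16 without high replicate 2. ADAM28 had 493 counts in high replicate 1 and 27 in high replicate 2, against 182 and 232 in low G0/G1. Its log2 fold change of 0.35 ± 1.17 was -2.86 without high replicate 1, where DESeq2 called it lower (adjusted p = 0.00292). ADAM8, a sheddase of leukocytes, overlapped at 13.7 and 4.46 CPM in high and 17.0 and 8.11 CPM in low G0/G1. ADAM15, an integrin-binding protease, was under both low libraries in both high ones, at 40.1 and 52.2 CPM in high and 69.1 and 58.9 CPM in low, with a log2 fold change of -0.47 ± 0.24 (edgeR adjusted p = 0.315, DESeq2 adjusted p = 0.417).

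**Figure D3:**
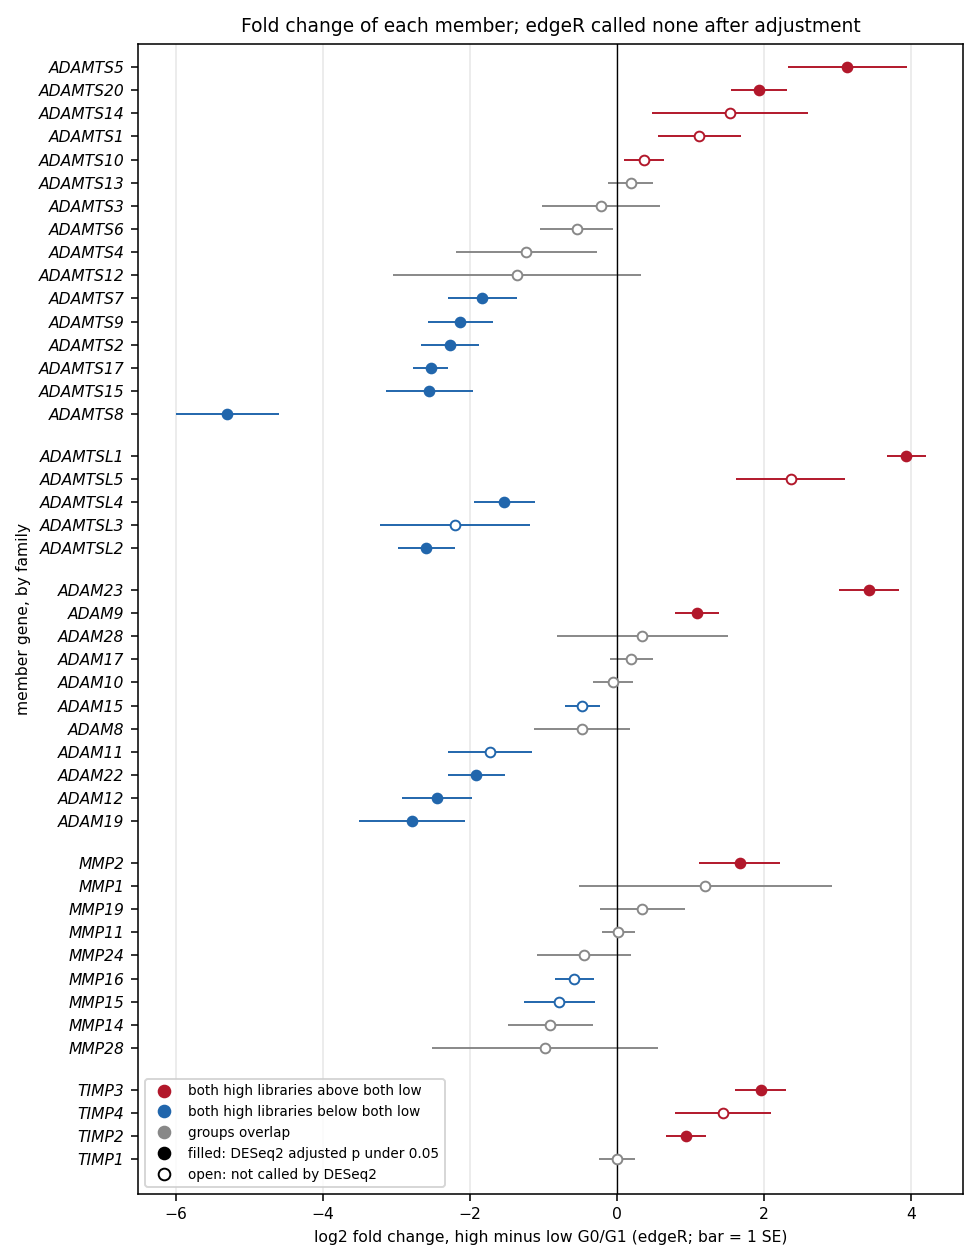
Log2 fold change, high minus low G0/G1, of the 45 members from edgeR with 1 standard error, grouped by family. Red marks have both high libraries above both low ones, blue marks both below, grey marks overlap, and filled marks were called by DESeq2. The filled marks run from ADAMTS8 at -5.30 to ADAMTSL1 at 3.93, and the MMP family holds 1 of them.

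Among the 9 MMP genes DESeq2 gave all but MMP28 an adjusted p and called 1, a share like that of all genes (11.3%). MMP2 (chromosome 6, 30059247 to 30087031), gelatinase A, had 86.4 and 255.3 CPM in high G0/G1, against 44.2 and 63.2 CPM in low G0/G1. It was the gene that DESeq2 called (adjusted p = 0.0259), with a log2 fold change of 1.67 ± 0.55 (SE, edgeR adjusted p = 0.202). Without high replicate 2 that fold change was 0.69 and the call was lost, as it was without either low library. MMP11, stromelysin-3, the gene with most reads in the family, had 222 and 280 CPM in high and 243 and 254 CPM in low G0/G1, a log2 fold change of 0.02 ± 0.22.

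The 4 membrane-type MMP genes all had a negative fold change, from -0.90 to -0.45, as had 50.6% of all genes, and 0 of them were called by DESeq2 (background 11.3%). Without low replicate 2 the sign turned for MMP24, to 0.068, and for MMP14. MMP16 had 65.7 and 43.9 CPM in high and 76.7 and 87.2 CPM in low G0/G1, with no overlap. MMP15 had 4.86 and 2.49 CPM in high and 6.33 and 6.31 CPM in low, again with no overlap (background 29.8%). MMP14, which activates the MMP2 proenzyme with the help of TIMP2, had 16.9 and 26.1 CPM in high and 19.5 and 61.0 CPM in low G0/G1. Its log2 fold change was -0.90 ± 0.58 (SE), and 0.16 without low replicate 2.

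MMP1, interstitial collagenase, had 0 and 61 counts in high G0/G1, against 14 and 14 in low G0/G1. MMP19 had 39 and 69 counts in high and 46 and 43 in low, MMP24 22 and 29 in high and 27 and 45 in low, and MMP28 3 and 14 in high and 1 and 33 in low. The groups overlapped in these 4 genes. A summed MMP level of 398 and 614 CPM in high and 392 and 476 CPM in low G0/G1 overlapped as well.

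Of the inhibitors, TIMP3 showed the largest difference. TIMP3 (chromosome 5, 12185816 to 12242599), which binds the matrix and also inhibits ADAM17 and aggrecan-cleaving ADAMTS enzymes, had 827 and 1492 CPM in high G0/G1, against 292.5 and 306 CPM in low G0/G1. TIMP2 (chromosome 12, 3254794 to 3300835) had 211 and 289 CPM in high and 114 and 147 CPM in low. TIMP4 (chromosome 13, 68179803 to 68191199) had 5.77 and 20.2 CPM in high and 3.95 and 5.58 CPM in low G0/G1. In TIMP3 the low libraries nearly coincided, while in TIMP4 high replicate 1 was close to low replicate 2.

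TIMP1 (chromosome X, 42103251 to 42106289), an inhibitor made in the ovary after the gonadotrophin surge, had 48.1 and 64.8 CPM in high and 52.1 and 60.8 CPM in low G0/G1. The log2 fold changes were 1.95 ± 0.35 (SE) for TIMP3, 0.94 ± 0.27 for TIMP2, 1.44 ± 0.66 for TIMP4 and 0.00 ± 0.24 for TIMP1, at edgeR adjusted p-values of 0.148, 0.181, 0.284 and 0.998. DESeq2 called TIMP3 (adjusted p = 2.6e-05) and TIMP2 (adjusted p = 0.0351). The call for TIMP2 was lost without high replicate 2 or either low library, and TIMP4 was at 0.28 without high replicate 2.

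The summed TIMP level was 1092 and 1866 CPM in high G0/G1 and 462 and 520 CPM in low G0/G1. TIMP3 took 75.7% (95% Wilson interval 75.2 to 76.2%) and 79.95% (79.6 to 80.3%) of TIMP reads in high G0/G1, against 63.3% (62.5 to 64.1%) and 58.9% (58.1 to 59.7%) in low G0/G1. Summed ADAMTS levels were lower in high G0/G1, at 196 and 208 CPM in high and 272.5 and 278 CPM in low. Summed ADAM levels overlapped, at 470 and 523 CPM in high and 604 and 416 CPM in low. For the TIMP and ADAMTS sums the exact permutation p was 0.333, the smallest possible, and for the ADAM sum 1.0.

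The DESeq2 calls rested to differing degrees on single libraries. ADAMTS8, which is among the members counted below, reached the 40-count limit only through the low group. With 1 library left out in turn, 6 members kept the call in each of the 4 fits: ADAMTSL1, ADAM23 and TIMP3, which were higher, and ADAMTS2, ADAMTS8 and ADAMTS17, which were lower. In all 5 fits together 37 members had an adjusted p, so 6 of 37 were called throughout, where the background was 1.12% of all genes. Leaving out high replicate 1, DESeq2 called 7 members higher and 12 lower of 42 with an adjusted p (background 7.54% and 9.68%). Leaving out high replicate 2 gave 5 and 8 of 42 (background 3.08% and 3.7%, 6.79% in either direction). For low replicate 1 the counts were 5 and 4 of 39 (background 2.58% and 0.943%, 3.53% together), and for low replicate 2 they were 4 and 5 of 40 (1.56% and 1.09%, 2.65% together).

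edgeR called 5 members higher and 6 lower without high replicate 1 (background 2.41% and 3.92%). They were ADAMTS5, ADAMTSL1, ADAM23, MMP2 and TIMP3 on the higher side, and ADAMTS2, ADAMTS7, ADAMTS8, ADAMTS15, ADAMTS17 and ADAM19 on the lower. It called 0 when any other library was left out (background 0%). In such a fit the group of 1 library is assumed to vary like the other group.

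Members spread more between the 2 high libraries than between the 2 low ones. The median absolute difference between replicates was 0.84 on the log2 scale in high G0/G1 and 0.28 in low G0/G1, and over all genes tested 0.42 and 0.29. The gap was wider in high G0/G1 in 33 of 45 members, against 8599 of 14352 genes. In 10 members high replicate 2 was the lowest, high replicate 1 next and both low libraries above. That is the order of the summed proliferation genes given above, and 21.5% of all genes tested showed it. The 10 were ADAMTS2, ADAMTS7, ADAMTS15, ADAMTS17, ADAMTSL4, ADAM11, ADAM12, ADAM19, MMP15 and MMP16. The part of proliferation in these differences was not tested, and the groups were made by cell cycle phase.

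Low replicate 2, the library with the stromal signal, had the highest level in 15 of 45 members (33.3%), against 24.3% of all genes tested. Low replicate 1 had it in 8 members (background 24.6%). Some of the 15 were close to low replicate 1, such as ADAMTS17 (1.035-fold) and MMP16 (1.14-fold). Others were further above it: MMP14 was 3.12-fold higher in low replicate 2 and ADAMTS4 6.43-fold. ADAMTS12 had 118 counts there against 3 in low replicate 1, and MMP28 had 33 against 1. These genes were picked after their values were seen. The collagen gene COL1A1 was at 34.3 and 27.7 CPM in high G0/G1, 16.3 CPM in low replicate 1 and 390.0 CPM in low replicate 2. The part of stromal RNA in their levels was not tested.

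**Figure D4:**
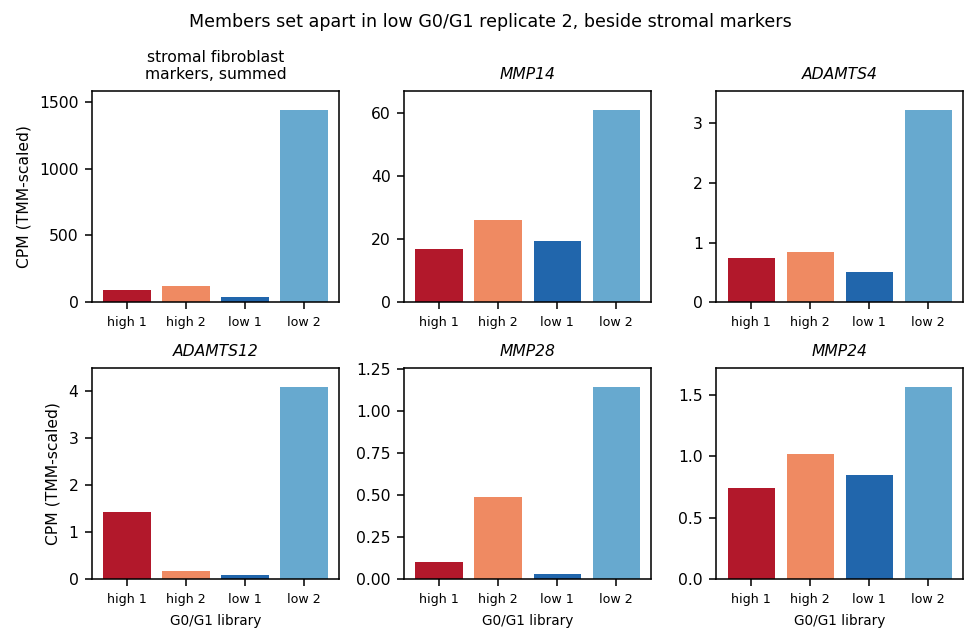
Level in CPM (TMM-scaled, axis from 0 and scaled per panel) of the summed fibroblast markers and of 5 members in the 2 high G0/G1 libraries (red, orange) and the 2 low G0/G1 libraries (dark and light blue). The fibroblast sum is 1439 CPM in low replicate 2 and at most 121 CPM elsewhere, and MMP14, ADAMTS4, ADAMTS12, MMP28 and MMP24 have their highest bar in the same library.

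Genes that act with the metalloproteases were taken as lists. Their counts stand beside 49.4% of all genes higher and 50.6% lower, and DESeq2 calls of 5.79% and 5.48%. Other inhibitors and regulators of MMP and ADAM proteins had 4 of 11 tested genes higher and 7 lower in high G0/G1, with a median log2 fold change of -0.08 (all genes -0.01), and DESeq2 called 1 higher and 0 lower. That gene was TFPI2, a serine protease inhibitor of the matrix, at 176 and 321 CPM in high and 57.2 and 41.4 CPM in low G0/G1 (DESeq2 adjusted p = 3.4e-06). RECK, a membrane-anchored MMP inhibitor, had 42.0 and 30.7 CPM in high and 25.05 and 21.0 CPM in low, and SPOCK2, a testican, 3.39 and 4.67 CPM in high and 1.32 and 1.87 CPM in low. SPOCK3 was on the other side, at 194 and 214 CPM in high and 263 and 297 CPM in low G0/G1. The median was 0.59 without low replicate 2.

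The proprotein convertases and the enzymes that glycosylate ADAMTS repeats gave 4 of 7 tested genes higher and 3 lower, a median of 0.17, and 0 DESeq2 calls. PCSK5, a convertase, had 34.0 and 22.4 CPM in high and 18.1 and 10.6 CPM in low G0/G1. POFUT2, which adds fucose to thrombospondin repeats, had 477 and 513 CPM in high and 355 and 414 CPM in low. For B3GLCT, which extends that fucose, the values were 141 and 159 CPM in high and 145 and 121 CPM in low. PCSK6 overlapped between groups, with a log2 fold change of -1.36 ± 0.65 (SE). Leaving out high replicate 1 gave 1 DESeq2 call higher and 2 lower.

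Partners of ADAM10 and ADAM17 gave 5 of 11 tested genes higher and 6 lower, with a median of -0.24, which was 0.21 without high replicate 1. DESeq2 called 0 higher and 2 lower: TSPAN33, a tetraspanin of ADAM10, at 5.33 and 5.54 CPM in high and 14.9 and 16.9 CPM in low G0/G1, and MAD2L1, which also acts in the spindle checkpoint. RHBDF2, the rhomboid-like protein that carries ADAM17 to the surface, had 54.3 and 32.9 CPM in high and 88.7 and 63.4 CPM in low. TSPAN5 had 10.2 and 16.6 CPM in high and 9.84 and 8.01 CPM in low G0/G1. The number called lower was 3 when high replicate 1 was left out, 1 for high replicate 2 and 0 for either low library.

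Proteins shed by ADAM10 and ADAM17 gave 12 of 18 tested genes higher and 6 lower, with a median of 0.33 that was 0.04 without high replicate 2. DESeq2 called 2 higher and 0 lower. They were BTC, an EGF-like ligand, at 11.6 and 47.5 CPM in high and 0.941 and 5.41 CPM in low G0/G1, and IL6R, the interleukin-6 receptor, at 2.05 and 9.37 CPM in high and 0.815 and 0.936 CPM in low. NOTCH2 had 399.8 and 589 CPM in high and 263 and 313 CPM in low, and TNFRSF1A, a TNF receptor, overlapped between groups. DESeq2 called 4 higher and 2 lower without high replicate 1, and 1 higher and 0 lower without each of the other libraries.

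Matrix substrates of ADAMTS proteases had 0 of 10 tested genes higher and 10 lower, with a median of -2.41. Without low replicate 2 this turned to 7 higher and 3 lower, with a median of 0.95. The list shares COL1A1, COL1A2, COL3A1 and DCN with the fibroblast markers and VWF with the endothelial markers. VCAN, versican, the main proteoglycan substrate in the follicle, had 2583 and 1701 CPM in high and 2575 and 2323 CPM in low G0/G1. HAPLN1, a link protein of hyaluronan matrix, had 1.91 and 0.807 CPM in high and 6.49 and 5.34 CPM in low. It and the small proteoglycan gene BGN, which was at 119 CPM in low replicate 2 and at most 16.2 CPM elsewhere, were the 2 genes that DESeq2 called, both lower. Leaving out low replicate 1 gave 5 DESeq2 calls, all lower, and leaving out low replicate 2 gave 1, which was higher. For high replicate 1 there was 1 call, lower, and for high replicate 2 there were 0.

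Microfibril proteins, to which ADAMTS-like proteins bind, had 4 of 15 tested genes higher and 11 lower, with a median of -0.85 that was 0.07 without low replicate 2. FBN1, fibrillin-1, had 65.1 and 38.9 CPM in high and 92.1 and 106 CPM in low G0/G1. FBLN1, fibulin-1, a cofactor of ADAMTS1, had 101 and 52.3 CPM in high and 159 and 265 CPM in low, and was the 1 gene that DESeq2 called (adjusted p = 0.0217). LOX, the enzyme that crosslinks collagen and elastin, had a log2 fold change of -1.09 ± 0.52 (SE), and FBLN2 had -1.03 ± 0.45. Leaving out high replicate 1 gave 4 DESeq2 calls, all lower. For high replicate 2, and likewise for low replicate 2, there was 1 call, higher, and for low replicate 1 there were 0.

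Metalloproteases of other families had 2 of 9 tested genes higher and 7 lower, with a median of -0.94 that was -0.13 without low replicate 2. PHEX, a membrane endopeptidase that controls phosphate in bone, had 4.12 and 6.56 CPM in high G0/G1, against 52.0 and 33.6 CPM in low G0/G1 (DESeq2 adjusted p = 6.7e-09). MME, neprilysin, had 68.2 and 44.2 CPM in high and 13.6 and 22.6 CPM in low (DESeq2 adjusted p = 0.00256). TLL1, a tolloid-like procollagen proteinase, had 12.4 and 11.7 CPM in high and 19.2 and 17.2 CPM in low, and the carboxypeptidase gene CPE a log2 fold change of -0.96 ± 0.50 (SE). Without high replicate 1 DESeq2 called 1 higher and 3 lower, and without low replicate 1 0 higher and 1 lower.

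Transcription factors linked to protease genes at ovulation had 13 of 14 tested genes higher and 1 lower, with a median of 1.12, where 49.4% of all genes were higher. This list, like the others, was chosen with earlier results of these data known. DESeq2 called 4 higher (background 5.79%) and 0 lower: FOXO1, EGR1, FOSL2 and JUNB. FOSL2, an AP-1 subunit, had 125 and 500.4 CPM in high and 87.1 and 34.3 CPM in low G0/G1, JUNB 116 and 425 CPM in high and 95.7 and 39.5 CPM in low, and EGR1 1358 and 1688 CPM in high and 729 and 404 CPM in low. PGR, the progesterone receptor that drives ADAMTS1 at ovulation in mice, overlapped at 6.67 and 16.2 CPM in high and 9.40 and 6.48 CPM in low, and is named after its values were seen. With high replicate 1 left out DESeq2 called 7 higher (background 7.54%) and the median was 1.24. With low replicate 2 left out it called 0 (background 1.56%) and the median was 0.80. By edgeR's adjusted p, 0 genes of these lists were called with the 4 libraries.

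Coordinates of the 45 members, each with 1 match in the RefSeq annotation of Sscrofa11.1, show that 20 overlap another annotated gene. TIMP1, TIMP3 and TIMP4 lie inside the synapsin genes SYN1, SYN3 and SYN2, which had 385, 5 and 203 summed counts. ADAM17 shares 222 bases with IAH1, which had 6420 summed counts, and ADAMTS6 shares 2148 bases with the centromere gene CENPK. Overlaps also touch members that DESeq2 called. ADAMTS7 shares 7890 bases with TBC1D2B (1104 summed counts), and ADAM12 shares 7420 bases with FANK1 (774 summed counts). Whether the counting used strand is not stated in the labels, and reads in such overlaps may be assigned to either gene.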

How the data were processed

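Total RNA of granulosa cells was extracted with Trizol and sequenced as Illumina libraries, per the labels' protocols. The authors deposited a single table of raw counts (whole numbers) with gene symbols in rows and libraries in columns. HISAT2 and Sscrofa11.1 are named in the submitters' processing notes. What counted the reads, with which annotation and strand setting, is not given in the sources used here. Columns were matched to samples by title, and replicate numbers only name libraries.

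In R 4.3.3, edgeR 4.0.16 fitted high against low G0/G1 over all genes (filterByExpr at minimum count 10, minimum total 15, TMM, glmQLFit and glmQLFTest, no covariate), with Benjamini-Hochberg adjustment over 14352 genes. Residual degrees of freedom were 2, prior ones 3.20, and the common biological coefficient of variation was 0.371. Dividing the absolute log2 fold change by the root of F gave the SE. DESeq2 1.42.0, limma-voom (limma 3.58.1), median-of-ratios scaling, no filter on low counts and leaving out each library were alternatives. The fits were tested on simulated data. Family sums used an exact permutation test over libraries.

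The members, lists and rules were chosen with earlier results of these data known. Values per library are given for members averaging at least 1 on the log2 CPM scale that were among the 10 smallest p in a direction, for the gene with most reads in each family and for the TIMP genes, and other values were chosen after they were seen. From each partner list up to 4 genes with the smallest p are named, above the same log2 CPM limit. Wilson intervals, the counting interval of ADAMTS8 and zero-count limits of 3 counts cover counting error only. Neither sequences nor transcript lengths were used here.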

Additional observations from a re-analysis of the deposited data

How the results depend on the processing

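No paired analysis was possible because the labels number no replicates. The titles end in the codes Q9G and W8G for high and S9G and W7G for low G0/G1, some of which share a character, but their meaning is not given and they were not used to pair libraries. The edgeR counts of 0 genes, 0 members and 0 partner genes called in each direction did not change under limma-voom or median-of-ratios scaling. DESeq2 called 767 genes higher and 725 lower, 8 and 11 members, and 8 and 6 partner genes. Without a filter on low counts edgeR called 2 genes higher and 3 lower, of which 1 member, ADAMTSL1. With 1 library left out the edgeR counts ranged from 0 to 363 genes higher and 0 to 591 lower, 0 to 5 and 0 to 6 members, and 0 to 4 and 0 to 3 partner genes. With DESeq2, leaving out high replicate 1 gave 982 and 1261 genes, high replicate 2 391 and 470, low replicate 1 315 and 115, and low replicate 2 202 and 141, with 4 to 7 and 4 to 12 members, and 5 to 14 and 1 to 15 partner genes. The edgeR leave-one-out counts above 0 all came from leaving out high replicate 1. The cause was not tested.

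Signs turned in 15 of 45 members under at least 1 alternative, all of them with overlapping groups. With 1 library left out, log2 fold changes in edgeR ranged from -1.42 to 0.43 in ADAMTS3, -1.96 to 0.67 in ADAMTS4, -3.55 to 3.05 in ADAMTS12, -0.025 to 0.37 in ADAMTS13, -1.50 to 0.22 in ADAM8, -0.38 to 0.21 in ADAM10, -0.21 to 0.51 in ADAM17, -2.86 to 1.27 in ADAM28, -6.81 to 2.19 in MMP1, -0.16 to 0.17 in MMP11, -1.43 to 0.16 in MMP14, -0.16 to 0.71 in MMP19, -0.76 to 0.068 in MMP24, -2.49 to 3.10 in MMP28 and -0.23 to 0.19 in TIMP1. Under limma-voom ADAM28 was at -0.73, MMP1 at -1.37, MMP28 at 0.11 and TIMP1 at -0.01, and TIMP1 was at -0.0093 without a filter. With DESeq2 and 1 library left out, the ranges were -1.39 to 0.46 in ADAMTS3, -1.99 to 0.64 in ADAMTS4, -3.52 to 3.07 in ADAMTS12, -0.002 to 0.41 in ADAMTS13, -1.47 to 0.19 in ADAM8 (0.14 without high replicate 2), -0.34 to 0.23 in ADAM10, -0.18 to 0.55 in ADAM17, -2.82 to 1.29 in ADAM28, -6.20 to 2.25 in MMP1, -0.13 to 0.21 in MMP11, -1.46 to 0.13 in MMP14, -0.14 to 0.76 in MMP19, -0.79 to 0.037 in MMP24, -2.51 to 3.23 in MMP28 and -0.20 to 0.23 in TIMP1 (-0.061 without low replicate 1). The log2 ratio of the summed ADAM level, -0.04 with 4 libraries, ranged from -0.28 to 0.26, and that of the summed MMP level, 0.22, from -0.12 to 0.50. A description of sequences could not be run, since none were used here. Depth limits what a count of 0 can show to levels above 0.0941 to 0.105 CPM, depending on the library.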
